A study of Talaromyces verruculosus with 6 samples.

Results

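Convergent neighbour pairs with close ends are places in the genome of Talaromyces verruculosus, a filamentous fungus, where a gene on the plus strand is followed by a gene on the minus strand with at most 1000 bp between their coding ends. They were chosen by position and strand alone, from the contig and region listed for each gene, and no expression value entered the choice. There were 2423 such pairs among 11040 consecutive gene pairs on the same contig. They held 4846 of 11326 annotated genes (42.8%) and lay on 170 of 286 contigs. The name of the genome build is not given in the sources used here, and the files pair the locus tags with no gene names, so pairs are given by contig and position and the function of their genes is not known here.

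Genes that point at each other are transcribed towards each other, so their 3′ untranslated regions both begin in the stretch between the coding sequences. Where that stretch is short, they can reach beyond it. In compact fungal genomes, among them that of budding yeast, the transcript ends of convergent genes often overlap, and each transcript can then contain sequence antisense to its neighbour. Genes that instead share an upstream region, as divergent pairs do, can be reached by the same regulators, whereas the promoters of a convergent pair lie at its outer edges.

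RNA was sequenced from actively growing mycelia of strain TS63-9, kept for 24 h in basic medium with pectin at 5 g/L (3 pectin libraries) or in the same medium without pectin (3 control libraries). Pectin is a plant cell wall polymer built largely of galacturonic acid. The design text of the series calls the cultures biological replicates, and all come from the same strain. The question put by the design is which genes are used more or less when pectin is there, and here it is asked of neighbours whose ends meet. Each library had 10320372 to 11393959 exon reads. The first principal component of log2 CPM (reads scaled to library total) held 67.4% of the variance. Control 1 and pectin 1 differed most from the other libraries of their groups, with chi-square values over their degrees of freedom of 70.0 and 91.4 for pectin 1 against pectin 2 and pectin 3 and of 135 for control 1 against each other control.

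Convergent neighbours lay closer than same-strand neighbours. Of all 3190 convergent pairs, 76% were within 1000 bp, beside 47.2% of 4680 same-strand pairs and 50.6% of 3170 divergent pairs. Within the limit the convergent gap had a median of 336 bp (quartiles 196 and 539 bp), beside 634 bp (quartiles 468 and 793 bp) in the 2208 same-strand pairs used for comparison. Gaps of at most 100 bp made up 7.72% of convergent and 0.453% of same-strand pairs, and gaps of 100 to 250 bp (a range of gaps includes its upper limit but not its lower) made up 27.3% and 2.81%. Because the gene models hold coding sequence only, these distances run from stop codon to stop codon in convergent pairs. The 3 widest gaps inside the limit were each 997 bp, and the 3 narrowest outside it were 1001, 1005 and 1008 bp.

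**Figure D1:**
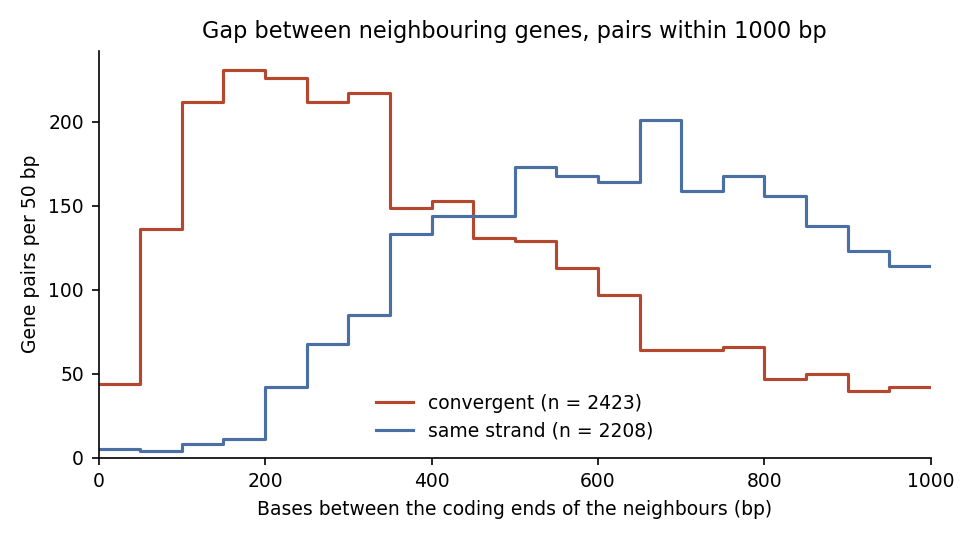
Number of gene pairs per 50 bp of gap (y axis) against the bases between the coding ends (x axis, bp) for 2423 convergent and 2208 same-strand pairs within 1000 bp. Convergent pairs were most frequent at 150 to 199 bp (231 pairs) and same-strand pairs at 650 to 699 bp (201 pairs).

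The genes of convergent pairs were otherwise much like the rest in structure. Their median coding length was 1293 bp, beside 1278 bp in the genes outside these pairs, and 21.8% and 22.4% had a single exon. Their levels were higher: the median of RPKM (reads scaled by exon length and library total) per library was 9.35 to 10.2 in pectin and 10.6 to 12.1 in control libraries for members. It was 6.42 to 6.81 in pectin and 7.08 to 8.73 in control libraries for all other genes. Genes of close same-strand pairs had medians of 9.43 to 10.3 in pectin and 10.1 to 11.9 in control libraries, and these ranges overlapped those of members in both groups. Of the same-strand genes, 1022 of 3928 (26%) were also members, through their other neighbour. Members took 42.2 ± 0.138% of exon reads in pectin and 42.5 ± 0.755% in control libraries (SD, n = 3 each).

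The levels of convergent neighbours were loosely related. In pairs with both genes tested (1833 pairs), the mean RPKM of the genes differed by at least 8-fold in 29.5% of convergent pairs and in 27.4% of 1644 same-strand pairs. Within single libraries, log2(RPKM + 0.1) of the left and the right gene correlated at 0.148 to 0.155 in pectin and 0.135 to 0.146 in control libraries across convergent pairs. Across same-strand pairs the correlation was 0.207 to 0.227 in pectin and 0.237 to 0.259 in control libraries. These are descriptions across pairs that share a library, with no test.

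The most abundant pairs showed how unlike such neighbours could be. On LHCL01000001 from 1408639 to 1410083, the genes lie 204 bp apart, and the right gene had 2705, 1890 and 2686 RPKM in pectin libraries against 2909, 5636 and 4498 RPKM in controls. The left gene of that pair had 3.94 ± 0.475 RPKM in pectin and 4.06 ± 1.46 RPKM in control libraries (SD, n = 3 each), so a very abundant and a weak transcript end 204 bp from each other. On LHCL01000009 from 127493 to 130115, with a gap of 131 bp, the right gene averaged 2774 ± 784 RPKM in pectin and 3164 ± 729 RPKM in control libraries and the left gene 2.59 ± 0.121 and 2.65 ± 0.603 RPKM (SD, n = 3 each). None of these 4 genes was called (edgeR adjusted p of 0.186 to 0.92), except that the right gene on LHCL01000001 was called lower without control 1. In the other of the 3 most abundant pairs, on LHCL01000035 from 110038 to 115374 with a gap of 337 bp, the left gene had 1925, 3541 and 4011 RPKM in pectin and 1071, 3332 and 3082 RPKM in control libraries and was not called. Its weaker right neighbour rose, with 95.3, 65.5 and 60.4 RPKM in pectin against 38.0, 26.5 and 32.1 RPKM in control libraries, a log2 fold change of 1.36 ± 0.22 (standard error, edgeR adjusted p = 0.0078).

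The 3 closest pairs were weakly used, and none of their genes was called. Gaps of 2, 15 and 17 bp, the smallest found, separated genes with mean levels of 1.44 to 5.26 RPKM in either group. On LHCL01000004 from 40594 to 44174, where only 2 bp lie between the stop codons, the left gene had 3.61, 3.63 and 3.10 RPKM in pectin and 6.39, 4.66 and 4.72 RPKM in controls. Its right neighbour had 2.80, 2.33 and 2.97 RPKM in pectin and 3.94, 2.63 and 2.20 RPKM in controls. The left gene's groups did not overlap and the right gene's did, and neither gene was called (edgeR adjusted p = 0.195 and 0.924).

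Members changed about as often as genes in general. Of 4107 member genes tested, 362 (8.81%) were higher and 247 (6.01%) lower with pectin by edgeR's quasi-likelihood test (Benjamini-Hochberg adjusted p under 0.05 over 9177 genes). Of all genes tested, 9.2% were higher and 7.0% lower, so the members' shares lay near the background. The median log2 fold change was 0.011 in members and −0.0061 in all genes. The other 739 members had too few reads to be tested. Of the 4107 members tested, a fitted change of at least 2-fold was called upward in 213 and downward in 196, and one of at least 16-fold upward in 35 and downward in 4. Over all 9177 genes tested, 108 (1.18%) were called at least 16-fold higher. The other shares over all genes were not worked out, so those counts are not read as a trait of members.

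These counts leaned on scaling and on single libraries. Scaling by library size only put the median log2 fold change over all genes at −0.21, and then 221 members were higher and 371 lower, so that 37.3% rather than 59.4% of called members were higher. Leaving out control 2 gave 118 members higher and 120 lower. Leaving out pectin 1 gave 155 and 112, leaving out pectin 2 gave 113 and 70, and leaving out pectin 3 gave a lower count of 161.

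Pairs in which both ends moved together were few. Of the 1833 pairs with both genes tested, 25 (1.36%) had both genes higher and 21 (1.15%) both lower. Over all 7782 consecutive pairs tested the shares were 2.09% and 1.48%, and over the 1644 same-strand pairs within 1000 bp they were 2.98% and 1.03%. In another 411 pairs (22.4%) 1 gene was called and its partner was not, beside 22.8% of all pairs and 22.3% of the same-strand pairs. Of these 411 genes, 261 were higher and 150 lower, beside 238 and 129 in the same-strand pairs with 1 gene called. Over all genes tested, higher calls also outnumbered lower ones, at 844 and 642. Leaving out control 2 gave 7 pairs with both higher and 10 with both lower, leaving out pectin 1 gave 9 and 8, and leaving out pectin 2 gave 5 and 4. Without control 3 the pairs with both higher numbered 15, and without pectin 3 those with both lower numbered 10. With scaling by library size only there were 16 and 30, so which direction had more such pairs reversed.

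The pair with the steepest joint rise lies on LHCL01000003 from 1232748 to 1236346, with a gap of 187 bp. Its left gene, ZTR_01829 (3 exons), had 340, 272 and 219 exon reads in pectin libraries against 0 reads in each control, a rise of at least 106-fold measured against 3 reads per control library (edgeR adjusted p = 0.000392). Its right gene had 46.2, 25.2 and 21.9 RPKM in pectin against 0.03, 0 and 0.08 RPKM in control libraries, with 4 reads in all controls together (edgeR adjusted p = 0.000197). Both genes were thus at or near 0 without pectin and clearly present in each pectin library. On LHCL01000012 from 89974 to 94363, with a gap of 622 bp, the genes rose almost equally, by log2 fold changes of 7.56 ± 0.48 and 7.60 ± 0.59 (standard error, edgeR adjusted p = 0.000197 and 0.000392). There the left gene averaged 37.8 ± 14.1 RPKM in pectin and 0.223 ± 0.137 RPKM in control libraries, and the right gene 21.4 ± 11.7 and 0.12 ± 0.0608 RPKM (SD, n = 3 each). The difference between the 2 rises was −0.025 on the log2 scale with a standard error of 0.50, so at this precision a difference of the order of 2-fold could not be told from none.

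Other joint rises were unequal. On LHCL01000018 from 235 to 3020, 34 bp apart, ZTR_03139 (the right gene, 7 exons) had 401, 237 and 161 RPKM in pectin against 0.47, 0.25 and 0.31 RPKM in control libraries. The left gene had 25.6, 13.6 and 5.62 RPKM in pectin against 1.16, 0.24 and 0.63 RPKM in controls. The log2 fold changes were 9.75 ± 0.52 and 4.66 ± 0.70, and the right-to-left ratio was itself higher with pectin by 5.19 ± 0.46 on the log2 scale (standard error, edgeR adjusted p = 0.000674). On LHCL01000003 from 1258651 to 1263376, 197 bp apart, the left gene averaged 50.1 ± 18.7 RPKM in pectin and 0.157 ± 0.0808 RPKM in control libraries and the right gene 4.43 ± 0.581 and 0.47 ± 0.214 RPKM (SD, n = 3 each). Both rose, the left gene by 8.44 and the right by 3.39 on the log2 scale, and the ratio differed by −4.98 ± 0.41 (standard error, edgeR adjusted p = 0.000451). In each of these 4 genes every pectin library lay above every control.

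The other 2 of the 6 leading joint rises lost a call when 1 library was left out. On LHCL01000128 from 16745 to 18937, 453 bp apart, the log2 fold changes were 3.61 ± 0.33 and 4.08 ± 0.83 (standard error). The right gene there had 0, 1 and 11 reads in controls 1, 2 and 3 against 48, 52 and 84 reads in pectin libraries, and its call was lost without control 2 or pectin 2, at an edgeR adjusted p of up to 0.0674. On LHCL01000165 from 20972 to 23239, 285 bp apart, the genes rose by 2.27 ± 0.48 and 2.43 ± 0.43. The left gene's call was lost without pectin 2 or pectin 3, at an edgeR adjusted p of up to 0.0663. The right-to-left difference was 0.014 ± 0.33 on the log2 scale (standard error), and it was not called (edgeR adjusted p = 0.979).

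In the 6 leading joint falls the fitted log2 fold changes lay between −1.46 and −3.12. ZTR_09104, the right gene of the pair on LHCL01000090 from 82717 to 87705 (gap 165 bp, 6 exons), had 3.81, 2.33 and 2.47 RPKM in pectin against 35.1, 17.4 and 15.5 RPKM in control libraries, a log2 fold change of −2.80 ± 0.34 (standard error, edgeR adjusted p = 0.00244). Its left neighbour had 7.81, 10.4 and 15.5 RPKM in pectin against 36.8, 45.8 and 45.1 RPKM in controls (log2 fold change −1.80 ± 0.27, edgeR adjusted p = 0.00564). Control 1 was the highest control for ZTR_09104 and the lowest for its neighbour, and in neither gene did the groups overlap. On LHCL01000109 from 40634 to 42717, 407 bp apart, the log2 fold changes were −1.89 and −2.52, and on LHCL01000082 from 58410 to 61310, 57 bp apart, they were −1.48 and −2.31. On LHCL01000022 from 66216 to 71790, 173 bp apart, the abundant left gene had 19.1, 11.5 and 13.9 RPKM in pectin against 87.0, 33.8 and 34.8 RPKM in control libraries. Its right neighbour had 0.24, 0.23 and 0.40 RPKM in pectin against 1.91, 1.62 and 1.20 RPKM in controls.

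The largest fitted joint fall rested on few reads. ZTR_06380, the left gene on LHCL01000034 from 168873 to 172157 (gap 399 bp), had 4, 1 and 0 reads in pectin against 22, 12 and 19 reads in control libraries. Its right neighbour had 16, 11 and 5 reads in pectin against 156, 45 and 29 reads in controls. Each gene lost its call without any of 4 single libraries: control 2, pectin 2 and pectin 3 in either case, control 3 as well for ZTR_06380 (edgeR adjusted p of up to 0.111) and pectin 1 as well for its neighbour (up to 0.142). In the last of the 6 leading falls, on LHCL01000127 from 7825 to 17246 (gap 312 bp), the log2 fold changes were −1.78 and −1.46. The right gene's call was lost without any one of control 2, pectin 1, pectin 2 or pectin 3, at an edgeR adjusted p of up to 0.0975. On LHCL01000022 the left gene's call was lost without pectin 2 or pectin 3, at up to 0.0983. In none of the 6 leading falls was the change in ratio between the genes called (edgeR adjusted p of 0.167 to 0.588).

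Whether neighbours changed by different amounts was tested directly, as a difference between pectin and control in the ratio of right-gene to left-gene reads, with the library as a block. The ratio changed in 219 of 1833 convergent pairs (11.9%) at an adjusted p under 0.05 (edgeR, adjusted over 7782 pairs). Over all consecutive pairs the share was 13.0%, and over same-strand pairs within 1000 bp 13.9%. By gap, convergent pairs gave 8.33% at up to 100 bp, 10.4% at 100 to 250 bp, 11.5% at 250 to 500 bp and 15.4% at 500 to 1000 bp. Same-strand pairs gave 12.7% and 14.9% in the last 2 of these ranges, which are the ones with more than 41 same-strand pairs tested. The share of convergent pairs with 1 gene called rose over the same ranges, at 14.6%, 20.3%, 22.5% and 27%. How far the changed ratios by gap follow from this was not tested. In 177 of the 219 pairs 1 gene was called and the other was not, in 10 the genes were called in opposite directions, in 8 in the same direction, and in 24 neither gene was called alone. Without control 2 the ratio changed in 75 pairs, without pectin 1 in 119 and without pectin 2 in 74.

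**Figure D2:**
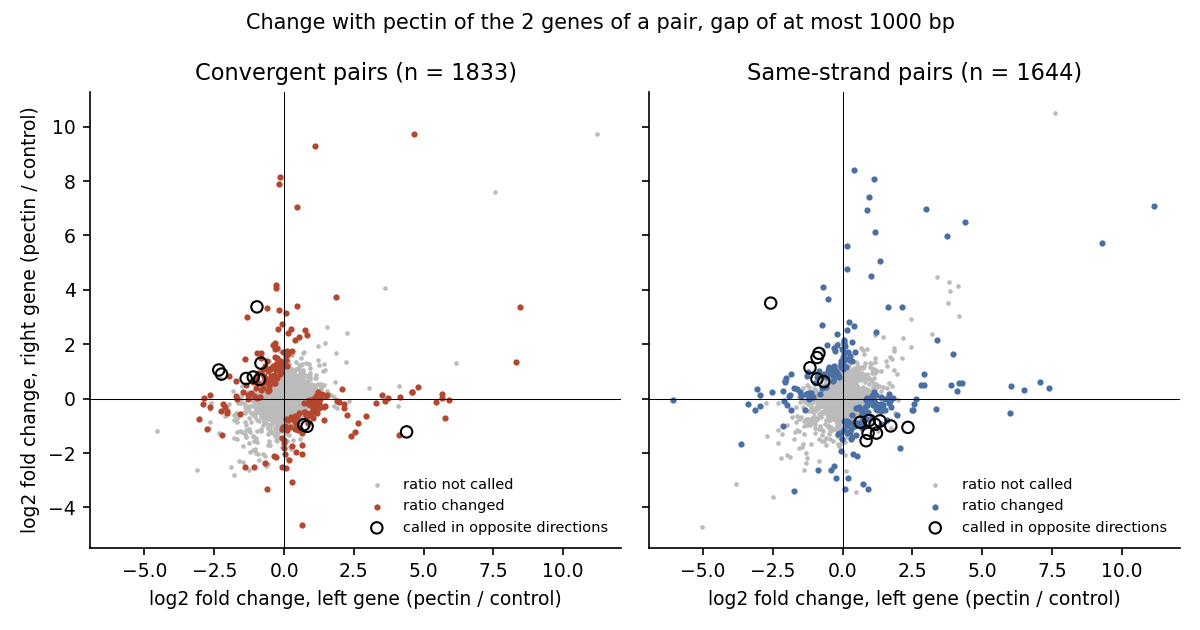
Log2 fold change (pectin over control) of the right gene (y axis) against that of the left gene (x axis) for 1833 convergent and 1644 same-strand pairs. Coloured points are pairs with a changed ratio (219 convergent, 228 same-strand), grey points the others, and open circles pairs called in opposite directions (10 and 15). Many coloured points lie along the axes, where 1 gene moved and its neighbour stayed near 0.

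The ratio change with the smallest adjusted p lies on LHCL01000066 from 34056 to 40917, where the genes end 79 bp apart. The right gene had 92.6, 54.7 and 44.8 RPKM in pectin against 0.68, 0.46 and 0.47 RPKM in control libraries, a log2 fold change of 7.06 ± 0.39 (standard error, edgeR adjusted p = 0.000134). The left gene had 131, 78.9 and 76.3 RPKM in pectin against 95.0, 76.4 and 61.0 RPKM in controls, with overlapping groups and no call (log2 fold change 0.46 ± 0.27, edgeR adjusted p = 0.287). The ratio rose by 6.57 ± 0.25 on the log2 scale (standard error, edgeR adjusted p = 1.45e-05) and was called in each of the 6 fits without 1 library. The right gene was thus nearly silent in control libraries and abundant in pectin libraries, where it stayed below its left neighbour in each.

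Similar contrasts stood at wider gaps. On LHCL01000069 from 54182 to 58024 (502 bp), the left gene, which has a single exon, had 83.3, 142 and 85.9 RPKM in pectin against 2.29, 1.39 and 2.08 RPKM in control libraries. Its right neighbour, among the abundant transcripts, had 1032, 1498 and 1178 RPKM in pectin against 1735, 1377 and 1162 RPKM in controls and a log2 fold change of −0.051 ± 0.25 (standard error, edgeR adjusted p = 0.919). On LHCL01000077 from 67916 to 73793 (404 bp), the right gene had 260, 81.1 and 114 RPKM in pectin against 1.10, 0.34 and 0.71 RPKM in controls, while the left gene averaged 36.3 ± 1.69 RPKM in pectin and 46.3 ± 8.61 RPKM in controls (SD, n = 3 each) and was not called (edgeR adjusted p = 0.431). The right genes of this pair and of the one with a 79 bp gap were highest in pectin 1 among the pectin libraries.

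On LHCL01000063 from 21034 to 25009 (946 bp) the right gene averaged 248 ± 70.3 RPKM in pectin and 0.44 ± 0.0656 RPKM in control libraries (SD, n = 3 each), and its log2 fold change was 9.28 ± 0.35 (standard error). Its left neighbour had 7.49, 6.94 and 5.16 RPKM in pectin against 6.75, 1.93 and 1.80 RPKM in controls and was not called (edgeR adjusted p = 0.153), though it was called higher without control 1 and with the replicate block. On LHCL01000026 from 128807 to 133027 (760 bp) the left gene had 431, 248 and 222 RPKM in pectin against 8.56, 4.59 and 5.79 RPKM in controls. Its right neighbour had 3.27, 5.26 and 4.19 RPKM in pectin against 8.27, 8.65 and 6.20 RPKM in controls, lower in each pectin library but short of the threshold (log2 fold change −0.72 ± 0.25, edgeR adjusted p = 0.0966). DESeq2 and the fit with the replicate block called this gene lower, which makes the pair one of opposite directions there. On LHCL01000003 from 1263899 to 1266952 (309 bp), both genes rose, by 8.30 ± 0.40 and 1.33 ± 0.26 on the log2 scale. That smaller rise lost its call without control 2, pectin 1 or pectin 2, at an edgeR adjusted p of up to 0.0602. The changes in ratio of all 6 of these pairs were called in each fit without 1 library.

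**Figure D3:**
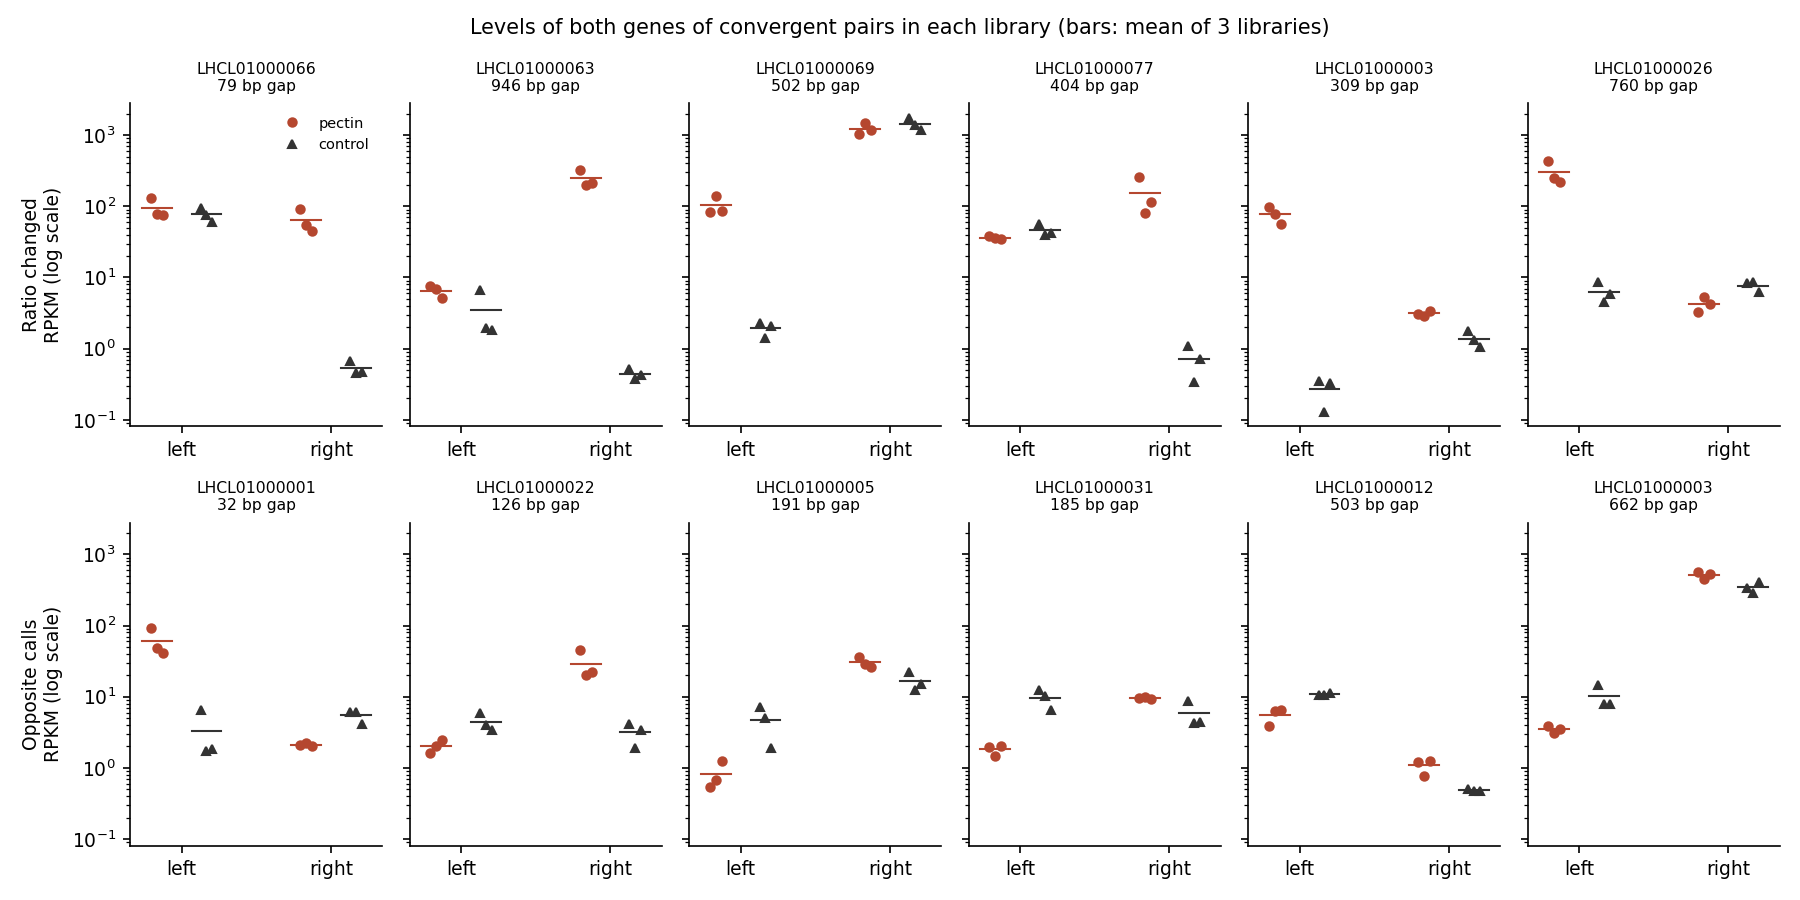
RPKM (log scale) of the left and right gene of 12 convergent pairs in each library, pectin (circles) and control (triangles), with bars at the mean of 3 libraries. In the upper row, pairs led by the ratio test, the gene that moved differs by up to more than 2 log10 units between groups beside a neighbour that moves far less. In the lower row the 2 genes of each pair were called in opposite directions.

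Pairs called in opposite directions numbered 10 of 1833 (0.546%), beside 0.681% of all consecutive pairs and 0.912% of the same-strand pairs, and in all 10 the ratio change was called as well. On LHCL01000001 from 137052 to 142055, 32 bp apart, the left gene had 91.4, 48.0 and 41.1 RPKM in pectin against 6.44, 1.73 and 1.83 RPKM in control libraries (log2 fold change 4.39 ± 0.57, edgeR adjusted p = 0.00309). The right gene had 2.08, 2.27 and 2.00 RPKM in pectin against 6.11, 6.15 and 4.11 RPKM in controls (log2 fold change −1.22 ± 0.24, edgeR adjusted p = 0.0147). In both genes the groups did not overlap. On LHCL01000022 from 263532 to 270909, 126 bp apart, the right gene averaged 29.2 ± 13.6 RPKM in pectin and 3.18 ± 1.19 RPKM in control libraries, and the left gene 2.03 ± 0.431 and 4.45 ± 1.36 RPKM (SD, n = 3 each). On LHCL01000031 from 54852 to 59823, 185 bp apart, the left gene had 1.97, 1.49 and 2.05 RPKM in pectin against 12.4, 10.1 and 6.49 RPKM in controls, a log2 fold change of −2.24 ± 0.28. Its right neighbour had 9.69, 9.97 and 9.32 RPKM in pectin against 8.78, 4.29 and 4.45 RPKM in controls, a rise of 0.90 ± 0.25 (edgeR adjusted p = 0.0473).

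The other 3 leading opposite pairs had smaller changes on at least 1 side. On LHCL01000005 from 117590 to 119504 (191 bp) the genes changed by −2.34 ± 0.52 and 1.06 ± 0.24, on LHCL01000012 from 160442 to 167202 (503 bp) by −0.83 ± 0.22 and 1.31 ± 0.29, and on LHCL01000003 from 1070966 to 1074072 (662 bp) by −1.36 ± 0.26 and 0.74 ± 0.20 on the log2 scale (standard errors). The right gene of the last pair averaged 519 ± 58.3 RPKM in pectin and 343 ± 61.2 RPKM in controls (SD, n = 3 each). The rising genes on LHCL01000005, LHCL01000031 and LHCL01000003 were not called with scaling by library size only. Opposite pairs were the least stable count, with 19 without control 1, 6 without control 3, 5 without pectin 3, 1 without pectin 1 and 0 without control 2 or without pectin 2. At an unadjusted p under 0.05, edgeR gave 31 opposite pairs without control 2 and 37 without pectin 2, beside 52 with all libraries. DESeq2, run with all libraries, called 33. In each of these 6 leading pairs at least 1 gene lost its call when 1 library was left out, at an edgeR adjusted p of up to 0.163. The change in ratio was called in each fit without 1 library in 4 of them. On LHCL01000005 it missed the threshold without pectin 2 (edgeR adjusted p = 0.0532) and on LHCL01000012 without control 2 (0.0506).

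Across pairs, the log2 fold changes of the left and right genes correlated at 0.286 in 1833 convergent pairs and at 0.395 in 1644 same-strand pairs. With gaps matched, the values were 0.202 in 676 convergent and 0.409 in 473 same-strand pairs at 250 to 500 bp, and 0.244 in 482 and 0.372 in 1124 pairs at 500 to 1000 bp. These values moved with the filter on low counts: at 250 to 500 bp they were 0.0445 and 0.289 with a mean of at least 10 CPM and 0.145 and 0.307 with no filter. At 500 to 1000 bp they were 0.339 and 0.468 with that minimum and 0.173 and 0.289 with no filter. Convergent pairs closer than that reached 0.409 at up to 100 bp and 0.388 at 100 to 250 bp. Over all gaps within the limit, rank correlations were lower and closer together, at 0.163 for convergent and 0.208 for same-strand pairs. With gaps matched, the rank correlations were 0.199 and 0.266 at 250 to 500 bp and 0.0746 and 0.173 at 500 to 1000 bp. Deviations of single libraries from their group mean leave out the mean difference between the groups. In pectin libraries they can still hold unequal responses of the cultures to pectin. Between the genes of convergent pairs these deviations correlated at 0.0989 to 0.115 in pectin and 0.0618 to 0.102 in control libraries. For same-strand pairs they correlated at 0.132 to 0.200 in pectin and 0.147 to 0.209 in control libraries. The points share their 6 libraries, and no test of these differences was made.

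The classes differed most visibly beside genes that rose. Of 181 convergent partners of genes at least 2-fold higher, 34 (18.8%) were also called higher, 4 were called lower and 143 were not called. Partners of convergent genes that were not called were higher in 8.3% and lower in 4.77% of 3143 cases. Of 214 same-strand neighbours of such genes, 81 (37.9%) were called higher, beside 8.63% next to same-strand genes that were not called. The median log2 fold change of these partners was 0.10 in convergent and 0.46 in same-strand pairs, and each class has genes that enter more than once, as both gene and partner. At matched gaps the shares were 20.3% (14 of 69) and 33.9% (21 of 62) at 250 to 500 bp, and 17% (8 of 47) and 37.8% (56 of 148) at 500 to 1000 bp. With scaling by library size only the order at 250 to 500 bp turned round, to 29.3% and 25.6%, while at 500 to 1000 bp the shares were 12.9% and 38.2%. In fits without 1 library the overall share ran from 10.8% (without pectin 2) to 23.1% in convergent and from 27.6% to 32.8% in same-strand pairs. At 250 to 500 bp 2 convergent partners of 33 (6.06%) were called without control 2 and 0 of 30 without pectin 2, beside 18.8% and 20% of same-strand neighbours. Without pectin 1 the shares in this range were nearly alike, at 14.6% (6 of 41) and 15.8% (6 of 38). At 500 to 1000 bp the convergent share was 8.33% without control 2, 8% without pectin 2 and 26.3% without control 1. Beside genes at least 2-fold lower, 38 of 158 partners (24.1%) were called lower in convergent and 31 of 138 (22.5%) in same-strand pairs. Without pectin 2 the convergent share there was 13.8%. At 250 to 500 bp these shares were 20.8% of 48 and 34.4% of 32, and at 500 to 1000 bp 20% of 55 and 17.6% of 102. Single libraries turned these orders: at 250 to 500 bp the shares were 20.8% and 9.52% without control 2 and 15.4% and 0% without pectin 2, and at 500 to 1000 bp 11.1% and 24.2% without pectin 2. At 250 to 500 bp they were 33.3% and 37.5% without control 1, 16.7% and 22.2% without pectin 1 and 12.1% and 24% without pectin 3. None of these differences was tested, since pairs are not replicates of a condition.

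**Figure D4:**
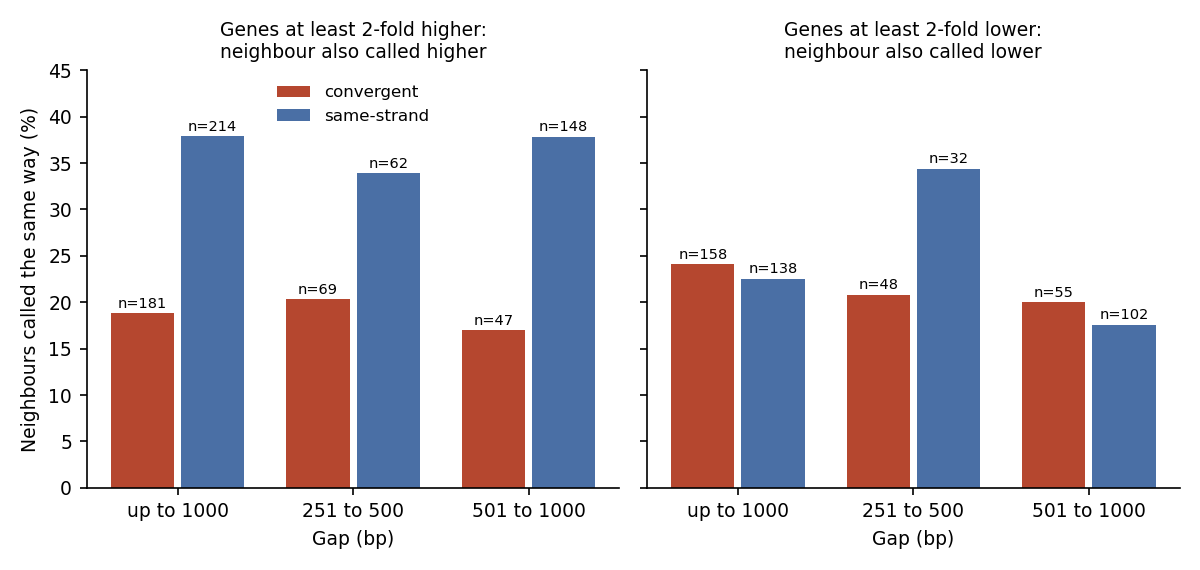
Share of neighbours called in the same direction (y axis, %) for genes at least 2-fold higher (left panel) and at least 2-fold lower (right panel) with pectin, in convergent and same-strand pairs, by gap (x axis, bp); n is the number of neighbours. Beside genes that were higher the convergent bars stand at 17% to 20.3% and the same-strand bars at 33.9% to 37.9%, an order that turned round at 250 to 500 bp with scaling by library size only.

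Partners of the most strongly higher genes were called higher in 31% of cases. Of 29 tested partners of genes at least 16-fold higher (such genes were 1.18% of all genes tested), 9 were called higher, 1 lower and 19 (65.5%) not at all, beside 86.9% not called among partners of uncalled convergent genes, with a median log2 fold change of 0.24. Of 33 same-strand neighbours of such genes, 18 were called higher, with a median of 1.18. In either class, a pair with both genes at least 16-fold higher enters from both sides. The convergent pairs on LHCL01000003 (from 1232748), LHCL01000012 (from 89974) and LHCL01000018 (from 235) do so, and the 9 higher partners are therefore not 9 separate pairs. Among the 19 uncalled convergent partners, 16 had enough reads for a test of the share of reads outside annotated exons. In these edgeR called a change in 0 (0 at an unadjusted p under 0.05, and 0 with DESeq2), where 0.248% of all genes tested had a higher and 0.732% a lower share, so that a count of 0 in 16 is near the background. The median change in the ratio of reads outside exons to exon reads was −0.067 on the log2 scale, beside 0.0038 over all genes. Each type of read was scaled to its own library total there.

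Reads outside annotated exons lie within a gene's listed count but not in its exons, and near a convergent end they could come from either strand, since it is not given in the sources used here whether the counting used strand. They made up 15.3 ± 0.899% of member reads in pectin and 18.1 ± 2.10% in control libraries, beside 14.9 ± 0.798% and 17.5 ± 1.69% in all other genes and 13.7 ± 0.976% and 16.6 ± 1.73% in genes of close same-strand pairs (SD, n = 3 each). In members with several exons the median share over genes was 19.2% at gaps of up to 100 bp, 15.9% at 100 to 250 bp, 14.5% at 250 to 500 bp and 14.4% at 500 to 1000 bp. Where the convergent partner was at least 8-fold more abundant, the medians in these ranges were 33.6% (35 genes), 22.5% (106 genes), 20.3% (170 genes) and 20.3% (131 genes). Members with a single exon stayed between 18.3% and 19.4% over the 4 ranges, and beside such a partner had 24.4% (8 genes), 19.3%, 16.8% and 19.2%. In same-strand pairs the multi-exon genes with a downstream neighbour at least 8-fold more abundant had 23.1% (193 genes), beside 14.4% in all of them. The matching convergent values over the whole limit were 21.4% (442 genes) and 15.3%. At 250 to 500 bp and at 500 to 1000 bp such same-strand genes had 21.1% (53 genes) and 22.6% (136 genes). At gaps over 250 bp the raised share beside an abundant neighbour was thus not particular to convergent pairs. At closer gaps the classes could not be compared, with 0 such same-strand genes at up to 100 bp and 4 at 100 to 250 bp (median 58.7%). Multi-exon members beside such a partner were themselves weak, with a median of 3.03 RPKM against 16.7 RPKM in all multi-exon members, and at gaps of up to 100 bp the medians were 2.89 and 8.09 RPKM. The part of the level in these shares was not tested.

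**Figure D5:**
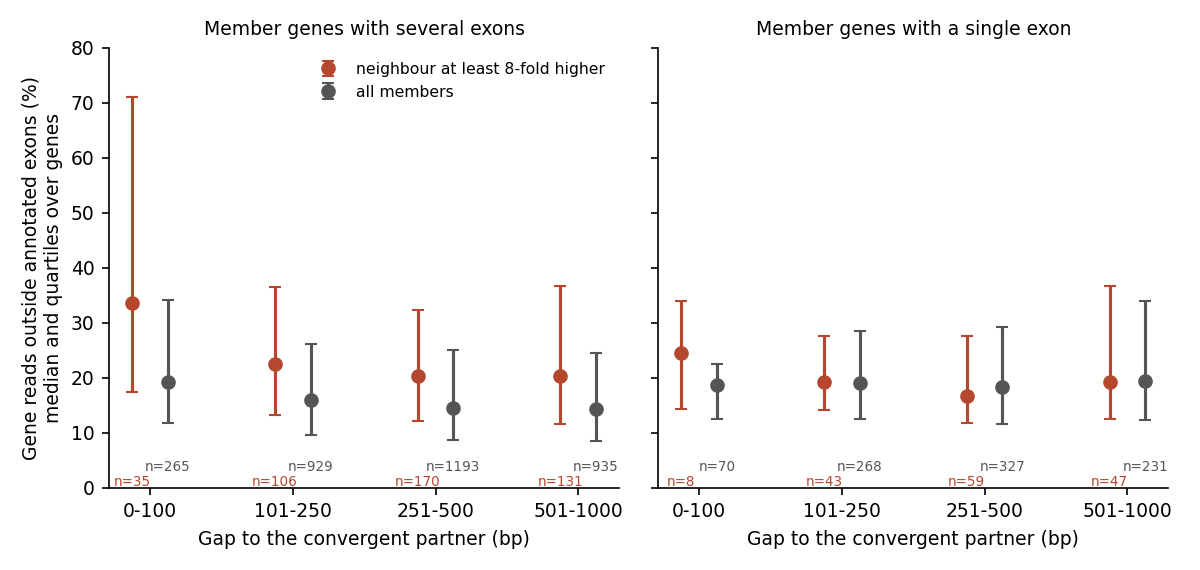
Share of a gene's reads that lie outside its annotated exons (y axis, %) by the gap to the convergent partner (x axis, bp), for members with several exons (left) and with a single exon (right). Points are medians and bars quartiles over genes, for members whose partner is at least 8-fold more abundant and for all members. Among multi-exon members at gaps of up to 100 bp the medians are 33.6% and 19.2%.

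With each type of read scaled to its own library total, the share outside exons was higher with pectin in 4 (0.11%) and lower in 25 (0.69%) of 3622 members tested, beside 0.248% and 0.732% of all 8062 genes tested (edgeR, adjusted p under 0.05). All 29 have several exons, and in 0 of them did the convergent partner also have a called change of share. Of 27 whose partner was tested, the partner's exon reads were not called in 22, near the background of 9.2% higher and 7.0% lower over all genes. Of the 25 with a lower share, 20 were called higher in exon reads, and the same exon reads enter both measures. Without control 2 the count was 15, without pectin 1 it was 17 and without pectin 2 it was 16.

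The smallest adjusted p for such a change (edgeR, 2.4e-08) was that on LHCL01000005 from 513423 to 514755, in a gene of 5 exons whose convergent partner ends 155 bp away. Its share was 11.8%, 13.6% and 9.79% in pectin against 49.6%, 45.3% and 42.4% in control libraries. Reads outside exons numbered 156, 132 and 81 in pectin and 126, 129 and 78 in controls, while exon reads numbered 1162, 839 and 746 in pectin and 128, 156 and 106 in controls. The reads outside exons were thus alike in number in both groups while exon reads rose, by 3.01 on the log2 scale (edgeR adjusted p = 0.000488). On LHCL01000085 from 89190 to 90392 (gap 106 bp), the share averaged 23.9 ± 3.91% in pectin and 61.9 ± 4.64% in control libraries (SD, n = 3 each) while exon reads rose by 3.42 on the log2 scale (edgeR adjusted p = 0.000893). Its reads outside exons numbered 123, 106 and 57 in pectin against 76, 44 and 38 in controls, so these overlapped between the groups.

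The next case differed. On LHCL01000001 from 1464700 to 1465694 (6 exons, gap 361 bp), the share was 1.33%, 1.38% and 1.05% in pectin against 9.60%, 12.7% and 5.12% in control libraries, with 12, 13 and 8 reads outside exons in pectin against 124, 122 and 46 in controls. Exon reads of this gene, at 126 RPKM in pectin and 137 RPKM in controls, were not called (edgeR adjusted p = 0.889), nor were those of its partner, at 76.0 and 75.7 RPKM (edgeR adjusted p = 0.704). Here the share fell, with a log2 change of −2.69 ± 0.30 in the ratio of reads outside exons to exon reads (standard error, edgeR adjusted p = 2.49e-05). The reads outside exons were fewer in every pectin library than in any control. On LHCL01000034 from 94124 to 97154 (gap 760 bp) the share was higher with pectin, at 29.2 ± 2.23% against 18.4 ± 1.52% in controls (SD, n = 3 each), in a gene whose exon reads fell by 1.70 on the log2 scale (edgeR adjusted p = 0.00123). Each of these 4 changes of share was called in all 6 fits without 1 library.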

How the data were processed

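Per the labels' protocols, mRNA was purified with poly-T beads and sequenced as paired ends. Aligner, counter, strand setting and genome build: not given in the sources used here. Per the file headers, the authors deposited read counts per gene (exons, exon-exon junctions, introns, whole gene) and RPKM. Intron reads are also listed for single-exon genes, so they are called reads outside exons. Coding lengths are multiples of 3 in 100% of genes, and 0 neighbours overlap. A gap is the number of bases between left end and right start.

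Exon read counts were tested with edgeR 4.0.16 (R 4.3.3; quasi-likelihood, robust, TMM, filterByExpr, Benjamini-Hochberg, threshold 0.05). The biological coefficient of variation was 26.7%. Ratios of neighbours and shares of reads outside exons (at least 60 reads of each type over all libraries, each type scaled to its own library total) were fitted with 2 columns per library and library as a block. DESeq2 1.42.0 was an alternative. Summaries used Python 3.11.15, numpy 2.4.6, pandas 2.3.3 and matplotlib 3.10.9. Levels were compared as log2(RPKM + 0.1). A count of 0 allows up to 3 reads, or 0.263 to 0.291 CPM, counting error only.

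On counts simulated for pectin against control (9203 genes), the gene test recovered 20% of 2-fold and 96% of 4-fold changes. The ratio test (7814 pairs) recovered 8.86% of 2-fold, 83.3% of 4-fold and 100% of 8-fold differences and made 9 false calls among 7497 unchanged pairs. For the gene and ratio tests, genes were drawn independently with a common dispersion, without outlying libraries or correlated neighbours. These rates may therefore not hold in the real libraries. The test of shares (7949 genes, assumed dispersion) recovered 91.5% of 4-fold changes, with 10 false calls.

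Pairs were named by rule: the 6 leading pairs with both genes higher, both lower, called in opposite directions or with a changed ratio, the 3 most abundant, the 3 closest, and 4 genes with a changed share. Locus tags are given for 2 genes that rose and 2 that fell. Members, lists and rules were chosen with earlier results of these data known. Gene lists by function could not be applied, since no names come with the tags. The labels give no batches. Replicate numbers were not taken as pairs.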

Additional observations from a re-analysis of the deposited data

How the results depend on the processing

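The 7 counts are, in order, members higher (362) and lower (247), pairs with both genes higher (25), both lower (21) or opposite (10), pairs with a changed ratio (219) and members with a changed share of reads outside exons (29). Relative log expression factors kept all 7 within 1.5 times. Library size only gave 221 members higher, 371 lower and 16 pairs with both higher; shares are scaled this way already, so it was not run for them. Without a filter the share count was 56. A mean of at least 10 CPM gave 233 members higher, 11 and 10 pairs with both higher and both lower, and 135 changed ratios, from fewer genes tested. DESeq2 gave 372 members lower, 36 pairs with both lower, 33 opposite and 348 changed ratios. A gap of at most 500 bp, with fewer pairs by construction, gave 162 members lower, 16 pairs with both higher, 4 opposite and 145 changed ratios. At least 2-fold gave 213 members higher, 14 pairs with both higher, 2 opposite and 17 changed shares. Leaving out 1 library gave 113 to 391 members higher, 70 to 279 lower, 5 to 28 pairs with both higher, 4 to 24 with both lower, 0 to 19 opposite, 74 to 282 changed ratios and 15 to 33 changed shares. The cause of these shifts was otherwise not tested.

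Replicate numbers are shared between the groups but not said to mark pairs. Deviations of libraries from their group mean correlated between same-numbered libraries at 0.46, 0.059 and 0.413. With the replicate block, 406 members were lower, 39 pairs had both genes higher, 40 both lower and 29 opposite, 468 ratios and 66 shares changed, and 515 members were higher. Depth limits the weakest genes, and 739 members had too few reads to be tested.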

Other observations

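Members also have a neighbour on their outer side, which allows the same gene to be set beside both. For 1196 members whose outer neighbour is divergent, within 1000 bp and tested, the log2 fold change differed by a median of 0.44 from that of the convergent partner and by 0.35 from that of the outer neighbour. The outer neighbour was the closer of both in 695 of them (58.1%). Across these members the log2 fold change correlated at 0.319 with the convergent partner and at 0.654 with the divergent neighbour. For 724 members with a same-strand outer neighbour the medians were 0.49 and 0.51, the outer neighbour was closer in 47.9%, and the correlations were 0.224 and 0.385. These are descriptions across genes that share their libraries, with no test.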
